A study of Homo sapiens with 15 samples.

Results

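Ketone body metabolism was followed through 5 genes, BDH1, BDH2, ACAT1, OXCT1 and AACS, which were picked by symbol out of 39133 genes in the deposited table. RNA was measured by poly(A) selected, paired-end sequencing in HepG2, a human liver cancer cell line with many hepatocyte features. The 15 libraries fall into 5 groups with 3 biological replicates each, in the words of the series text: control, palmitate alone, and palmitate combined with sodium butyrate, whose dose was 0.5 mM (low), 1 mM (medium) or 1.5 mM (high). Palmitate is a saturated fatty acid, used in this series to model insulin resistance, and butyrate is a short-chain fatty acid that inhibits histone deacetylases. Harvest was at 48 h in each group. Going by the library names, palmitate cells had 48 h of palmitate, whereas cells of the 3 doses had 24 h of it followed by 24 h of butyrate, so that the palmitate schedule differed along with butyrate. Palmitate is labelled as 200 mM, a unit that may be a slip. No group had butyrate without palmitate, and the names do not say whether palmitate stayed on during the hours with butyrate, so a difference between butyrate and palmitate cells below may hold both the added butyrate and a change in palmitate exposure, which cannot be told apart. All libraries carry 1 batch label.

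Ketone bodies are small fuels that the liver makes from fat in fasting and sends to other organs. In liver mitochondria ACAT1, a thiolase, joins acetyl-CoA units to acetoacetyl-CoA, from which acetoacetate is made, and BDH1 reduces acetoacetate to beta-hydroxybutyrate. Organs that burn ketone bodies run the last step backwards with BDH1, then use OXCT1, the CoA transferase that activates acetoacetate and that hepatocytes are known to lack or nearly lack, and split the product with ACAT1. AACS activates acetoacetate in the cytosol, where it can feed the synthesis of fatty acids and sterols. BDH2 is a cytosolic dehydrogenase that resembles BDH1 in its reaction on beta-hydroxybutyrate, and it has also been tied to the making of an iron-binding molecule.

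BDH1 and ACAT1 RNA fell at every butyrate dose relative to palmitate alone, AACS fell by a small amount at the high dose, BDH2 stayed uncalled in every comparison, and OXCT1 was too sparsely counted to follow closely. Relative to palmitate alone, BDH1 was 1.68-fold, 1.60-fold and 2.40-fold lower at the low, medium and high dose, and ACAT1 was 1.49-fold, 1.52-fold and 1.89-fold lower. Palmitate alone gave no call for any of the 5 genes relative to control. A gene is called where the Benjamini-Hochberg adjusted p of edgeR's quasi-likelihood test, over all 20309 genes that passed the filter on low counts, is under 0.05. All 5 members passed that filter. Adjusted p-values below are from that test unless another tool is named, levels are in CPM, which are counts set relative to the TMM-scaled library total, and errors are SD over 3 libraries.

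The response to butyrate was broad. In high butyrate relative to palmitate, 3 of 5 members were called lower, while 71.6% of all tested genes were called and 33.8% were called lower. At the low dose 2 of 5 were called lower, against 49.9% of all genes called and 24.0% called lower. At the medium dose 2 of 5 were called lower, against 51.5% called and 24.4% called lower. In high relative to medium butyrate 4 of 5 were called lower, against 55.6% called and 28.7% called lower. With 5 genes such shares say little about the set. No member was called higher in any comparison by that test, though some alternative settings below called BDH2 or OXCT1 higher. The median log2 change of the members in high butyrate relative to palmitate was -0.60, beside 0.06 over all tested genes. That median is the value of OXCT1, which was sparsely counted and not called, and without palmitate replicate 1 the median member was AACS, at -0.33. All butyrate comparisons with palmitate share the same 3 palmitate libraries.

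Per unit of gene length, the members held 1 order throughout. In FPKM (counts per gene length and library total, as deposited by the authors), ACAT1 was above BDH2, BDH2 above AACS, AACS above BDH1 and BDH1 above OXCT1 in each of the 15 libraries. Mean FPKM in control, palmitate, low, medium and high butyrate was 15.4, 19.98, 14.0, 13.8 and 11.6 for ACAT1. It was 3.12, 2.87, 3.35, 3.31 and 3.31 for BDH2, and 2.73, 2.45, 2.39, 2.38 and 2.24 for AACS. BDH1 was at 1.48, 1.25, 0.772, 0.811 and 0.571 FPKM in the same groups. The mitochondrial thiolase was thus the most abundant member per length, and OXCT1, the step known to be near absent from hepatocytes, the least. The gene lengths implied by the deposited FPKM were 11876 bases for BDH1, 5240 for BDH2 and 16123 for AACS. GENCODE 29 gives 9114, 3383 and 16094 bases over all annotated exons, more than a single transcript need hold. In CPM AACS was above BDH2, at a mean of 43.8 against 16.3 in control, so its lower rank in FPKM rests on its greater length. Levels compared between genes carry that uncertainty.

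The genes lie apart from each other in the genome (GRCh38, GENCODE 29). BDH1 (ENSG00000161267) is at chr3:197509783-197573323 on the minus strand, BDH2 (ENSG00000164039) at chr4:103079435-103099883 on the minus strand, and ACAT1 (ENSG00000075239) at chr11:108121516-108147776 on the plus strand. OXCT1 (ENSG00000083720) is at chr5:41730065-41870519 on the minus strand, and AACS (ENSG00000081760) at chr12:125065379-125143333 on the plus strand. Some exonic bases are shared with neighbours, namely 397 bases of BDH2 with SLC9B2 on the same strand, 375 bases of ACAT1 with the antisense genes AP002433.1 and AP002433.2, and 229 bases of OXCT1 with OXCT1-AS1 on the opposite strand. The strand setting of the counting is not given in the sources used here, so reads from these stretches cannot be assigned to 1 gene with certainty.

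Sequence upstream of the starts is shown for the 3 genes that fell and for BDH2, which was not called, so that the start regions can be set side by side. RefSeq (GRCh38.p14) gave the 250 bases before each start, and the part that lies before the first annotated exon base is printed here, 5′ to 3′ in the direction of transcription. Capitals mark matches on either strand to a GC box (GGGCGG) or a CCAAT box (CCAAT). BDH1 has a pair of listed starts, with stretches at chr3:197573344-197573593 and chr3:197556049-197556218. The printed stretches of ACAT1, AACS and BDH2 are at chr11:108121317-108121515, chr12:125065185-125065378 and chr4:103099884-103100084.
BDH1, start 1: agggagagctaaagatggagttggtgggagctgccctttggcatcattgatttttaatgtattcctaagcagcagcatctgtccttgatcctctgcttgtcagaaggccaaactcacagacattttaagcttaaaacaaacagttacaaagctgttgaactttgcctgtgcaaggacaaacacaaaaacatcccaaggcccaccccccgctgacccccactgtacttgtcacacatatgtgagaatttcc
BDH1, start 2: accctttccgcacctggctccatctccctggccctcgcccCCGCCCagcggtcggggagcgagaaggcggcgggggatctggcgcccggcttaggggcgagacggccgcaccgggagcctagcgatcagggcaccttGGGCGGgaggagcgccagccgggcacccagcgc
ACAT1, start 1: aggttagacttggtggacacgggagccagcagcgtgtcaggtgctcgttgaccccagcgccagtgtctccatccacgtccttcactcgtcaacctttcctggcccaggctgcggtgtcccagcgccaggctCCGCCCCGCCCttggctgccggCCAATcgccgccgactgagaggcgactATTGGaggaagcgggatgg
AACS: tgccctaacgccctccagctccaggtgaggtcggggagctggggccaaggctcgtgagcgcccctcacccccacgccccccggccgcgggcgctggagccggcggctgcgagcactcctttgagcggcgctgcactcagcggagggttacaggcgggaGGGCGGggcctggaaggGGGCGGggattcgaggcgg
BDH2: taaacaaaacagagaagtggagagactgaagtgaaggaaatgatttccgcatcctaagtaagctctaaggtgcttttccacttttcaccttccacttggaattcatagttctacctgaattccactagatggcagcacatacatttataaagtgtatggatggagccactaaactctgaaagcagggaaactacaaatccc
The first BDH1 start and the BDH2 start are poor in CpG, and the second BDH1 start and those of ACAT1 and AACS are rich in it. Over the whole 250 bases, start 1 of BDH1 has 45.6% G and C and 1 CpG, and BDH2 has 40.8% and 2 CpG. Start 2 of BDH1 has 77.6% and 34 CpG, the first ACAT1 start has 69.2% and 23, and AACS has 77.6% and 28, beside medians of 58.0% and 11 over 27305 promoters. GC boxes numbered 3 in start 2 of BDH1, 3 in the first ACAT1 start and 3 in AACS, and 0 in start 1 of BDH1 and in BDH2, and 42.3% of all promoters hold at least 1. The first ACAT1 start also has 2 CCAAT boxes, a motif in 33.0% of promoters. OXCT1, not called relative to palmitate and not printed, has a first listed start with 68.0% G and C, 25 CpG and 3 GC boxes. Its second has 34.8%, 2 CpG and 0 GC boxes. A second ACAT1 start is listed, whose window at chr11:108121546-108121795 lies past the first annotated exon base and is not printed; it has 73.6% G and C and 27 CpG, with 0 GC boxes and 0 CCAAT boxes. A cyclic AMP response element (TGACGTCA, in 1.77% of promoters) and a sterol response element (TCACNCCAC, in 0.875%) had no match in the windows of the 5 genes on either strand. Overlapping GC boxes were counted separately, and no match to one motif overlapped a match to another. The counts do not show which start of BDH1, ACAT1 or OXCT1 was in use.

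BDH1, the mitochondrial dehydrogenase that interconverts acetoacetate and beta-hydroxybutyrate, fell the most of the 3 members called lower in high butyrate relative to palmitate. For BDH1 the control libraries held 17.4, 17.3 and 17.7 CPM and the palmitate libraries 16.4, 15.5 and 14.3 CPM, while libraries with 0.5 mM butyrate held 9.04, 8.57 and 9.85 CPM, those with 1 mM 10.7, 9.20 and 8.91 CPM and those with 1.5 mM 6.52, 5.78 and 6.95 CPM. Every library with butyrate was below every palmitate and control library, every high butyrate library was below those of the lower doses, and the low and medium groups overlapped. Groups without overlap were common, at 53.6%, 53.7% and 72.1% of all tested genes for the low, medium and high dose relative to palmitate. The log2 change relative to palmitate was -0.75 at the low dose (SE 0.0952, adjusted p = 1.48e-06), -0.68 at the medium dose (SE 0.0951, adjusted p = 4.12e-06) and -1.26 at the high dose (SE 0.0974, adjusted p = 1.61e-10). High butyrate was also 2.72-fold below control (log2 change -1.44, adjusted p = 1.83e-11) and 1.49-fold below medium butyrate (log2 change -0.58, adjusted p = 4.02e-05). The step between the lower doses was not called (log2 change of medium over low butyrate 0.06, 95% interval -0.139 to 0.267). Across palmitate and the 3 doses the slope was -0.74 log2 units per mM of butyrate (adjusted p = 5.37e-10). Palmitate libraries were all below control libraries (16.1% of all genes had no overlap between these groups), but the difference missed the threshold (log2 change -0.18, 95% interval -0.375 to 0.00852, adjusted p = 0.372). BDH1 kept each of its called butyrate changes in all 24 alternative settings.

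**Figure D1:**
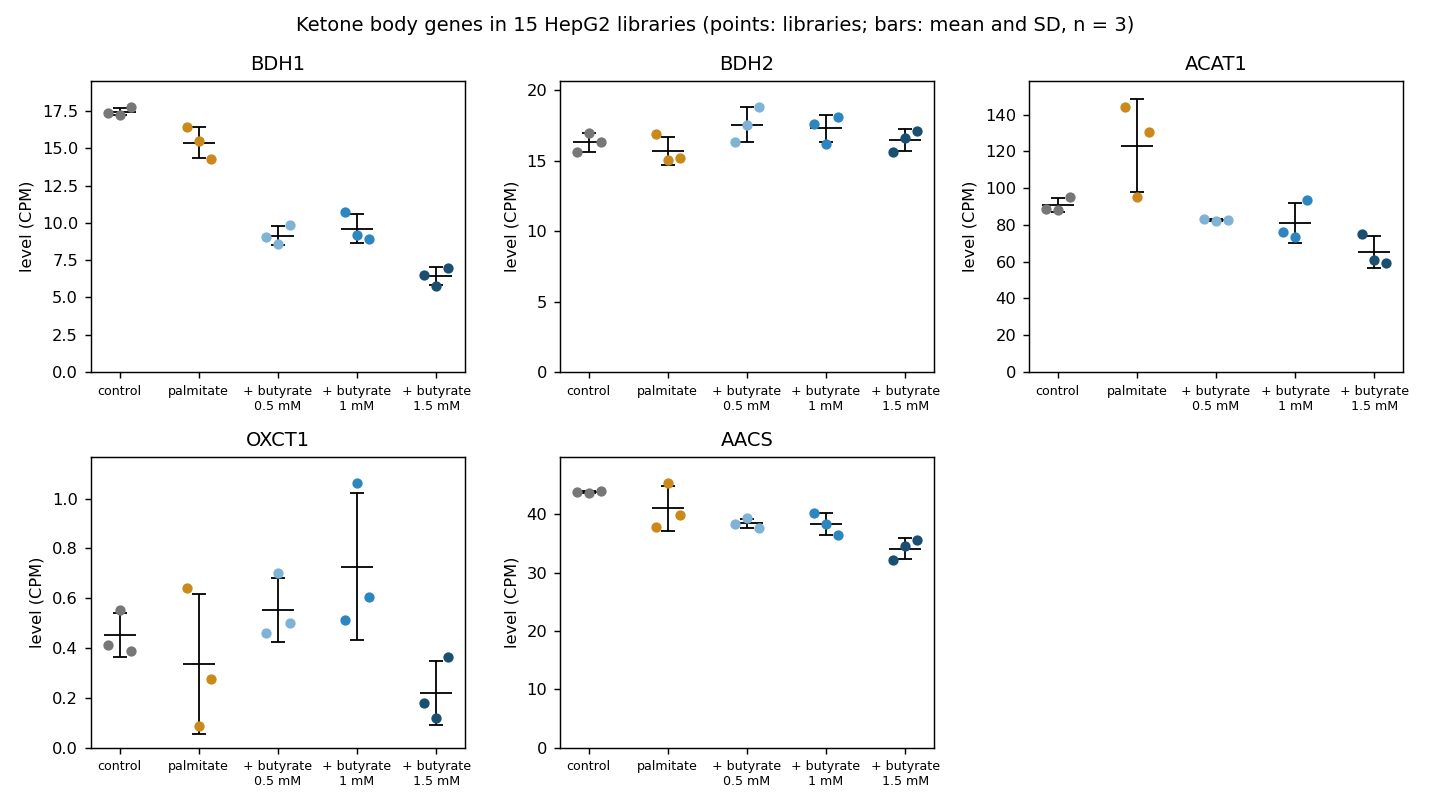
CPM (linear vertical axes from 0, a separate scale for each gene) of the 5 genes in the 15 libraries by group; points are libraries, bars the mean and SD of 3. BDH1 lies between 5.78 and 6.95 CPM in high butyrate, below every other group, while BDH2 overlaps between all neighbouring groups.

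BDH2, the cytosolic dehydrogenase, did not follow BDH1. For BDH2 the control libraries held 15.6, 17.0 and 16.3 CPM and the palmitate libraries 16.8, 15.02 and 15.2 CPM, while libraries with 0.5 mM butyrate held 16.3, 17.5 and 18.8 CPM, those with 1 mM 17.6, 16.2 and 18.1 CPM and those with 1.5 mM 15.6, 16.6 and 17.1 CPM. All groups next to each other in level overlapped. In high butyrate relative to palmitate the log2 change was 0.07, with a 95% interval of -0.0980 to 0.233 (adjusted p = 0.460), so a fall of the size seen for BDH1 lies outside the interval. At the low dose the log2 change was 0.16 (95% interval -0.00334 to 0.328, adjusted p = 0.0969) and at the medium dose 0.14 (95% interval -0.0265 to 0.305, adjusted p = 0.153). The low dose value passed the threshold in 5 of 24 alternative settings, among them scaling by library totals alone (adjusted p = 0.0281) and leaving out palmitate replicate 1 (adjusted p = 0.0391). The medium dose value passed in 2 of 24, with an adjusted p of 0.0455 under library totals alone. The high dose value passed in 3 of 24, with an adjusted p of 0.0291 under library totals alone.

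The ratio between the dehydrogenases was lower in every butyrate library than in any palmitate library. The FPKM ratio of BDH1 to BDH2 came to 0.492, 0.449 and 0.479 for the control libraries and 0.430, 0.455 and 0.415 for palmitate, then to 0.245, 0.216 and 0.232 for the low dose, 0.269, 0.251 and 0.218 for the medium dose and 0.185, 0.154 and 0.179 for the high dose. High butyrate libraries had the lowest ratios, and no butyrate library reached the palmitate range. The mean log2 ratio was 1.33 lower in high butyrate than in palmitate, given as a log2 difference of -1.33, with an exact two-sided permutation p of 0.1, which is the smallest that 3 libraries against 3 allow. For palmitate minus control the log2 difference in this ratio was -0.13, with an exact permutation p of 0.2, and the groups overlapped.

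ACAT1, the mitochondrial acetoacetyl-CoA thiolase that acts at the start of ketone body synthesis, at the end of ketone body use and in isoleucine breakdown, was highest in palmitate and lowest in high butyrate. For ACAT1 the control libraries held 88.6, 88.3 and 95.2 CPM and the palmitate libraries 144, 95.2 and 130 CPM, while libraries with 0.5 mM butyrate held 83.1, 82.2 and 82.7 CPM, those with 1 mM 76.1, 73.6 and 93.6 CPM and those with 1.5 mM 75.1, 60.7 and 59.3 CPM. The palmitate libraries were widely spread, and replicate 2 of palmitate was level with the highest control library at this precision. Relative to palmitate the log2 change was -0.58 at the low dose (SE 0.116, adjusted p = 0.000317), -0.60 at the medium dose (SE 0.116, adjusted p = 0.000177) and -0.92 at the high dose (SE 0.117, adjusted p = 3.96e-07). These 3 calls held in all 24 alternative settings, with log2 changes at the high dose between -1.08 and -0.72. The distance to control was smaller: high butyrate relative to control gave a log2 change of -0.48 (1.40-fold lower, adjusted p = 0.000983). The slope was -0.56 log2 units per mM of butyrate (adjusted p = 7.52e-07).

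Palmitate over control was the one comparison without butyrate, and ACAT1 came nearest to a call in it. Its mean was 123 ± 25.1 CPM in palmitate and 90.7 ± 3.88 CPM in control (SD, n = 3 each), a log2 change of 0.44 (95% interval 0.200 to 0.682) with an adjusted p of 0.128 by edgeR. With edgeR 0 of 5 members were called and 1 of 5, ACAT1, had an unadjusted p under 0.05, while 0.108% of all tested genes, or 22, were called, a number that was 1175 without palmitate replicate 2. DESeq2 called ACAT1 (adjusted p = 0.0257), as did edgeR without a filter on low counts (adjusted p = 2e-06) or without palmitate replicate 2 (adjusted p = 0.00242), and limma on log2 FPKM called 0 of 5. The palmitate libraries were the least alike of any group, with a chi-square per gene of 19.3 to 62.4 between pairs of them, against 5.58 to 8.22 between control pairs. The part of that spread in the ACAT1 result was not tested.

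The step of ACAT1 between medium and high butyrate was less secure. High butyrate relative to medium gave a log2 change of -0.32 (adjusted p = 0.0254), but their libraries overlapped and the call was lost in 7 of 24 alternative settings, including DESeq2 (adjusted p = 0.0535) and leaving out medium butyrate replicate 3 (adjusted p = 0.159), high butyrate replicate 2 (adjusted p = 0.0965) or high butyrate replicate 3 (adjusted p = 0.111). Between medium and low butyrate edgeR called 0 of 5 members, 0 of 5 had an unadjusted p under 0.05, and DESeq2 and limma also called 0. Over all tested genes the share called between these doses was 0%, with 490 genes at an unadjusted p under 0.05, 0 called by DESeq2 and 1 by limma.

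OXCT1, the CoA transferase that lets a tissue burn ketone bodies, stayed near the limit of detection. The control libraries held 19, 26 and 20 raw counts of it and the palmitate libraries 31, 4 and 16, while libraries with 0.5 mM butyrate held 20, 25 and 30, those with 1 mM 20, 54 and 26 and those with 1.5 mM 8, 6 and 18. These are sums of 65, 51, 75, 100 and 32 counts per group, and each pair was probably counted by both of its reads, so the number of independent fragments is smaller. The mean level was 0.220 ± 0.127 CPM in high butyrate and 0.726 ± 0.295 CPM in medium butyrate (SD, n = 3 each), which gave the single OXCT1 call, a log2 change of -1.72 (SE 0.518, 3.29-fold lower, adjusted p = 0.00757). The libraries of these groups did not overlap, which held for 63.6% of all tested genes, but without medium butyrate replicate 2, the library with the highest count, the log2 change was -1.34 and the adjusted p was 0.0598. Relative to palmitate, medium butyrate had a log2 change of 1.12 (95% interval 0.101 to 2.14, adjusted p = 0.0615) and high butyrate one of -0.60 (95% interval -1.74 to 0.541, adjusted p = 0.335). The medium value passed the threshold in 6 of 23 alternative settings, among them library totals alone (adjusted p = 0.0473). Both values also depend on single libraries. Without palmitate replicate 1, the highest palmitate library, the values were 1.94 (adjusted p = 0.00339) and 0.21. Without palmitate replicate 2, the lowest, they were 0.70 (adjusted p = 0.222) and -1.03 (adjusted p = 0.0734). The medium value was 0.73 without medium butyrate replicate 2 (adjusted p = 0.306). The high value was -1.17 without high butyrate replicate 3 (adjusted p = 0.112). The 95% intervals of both values in the full data span more than 2 log2 units each, so the size of these OXCT1 changes was poorly bounded.

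AACS, the cytosolic acetoacetyl-CoA synthetase, changed by the smallest amount of the 3 members called lower in high butyrate relative to palmitate. For AACS the control libraries held 43.8, 43.6 and 44.0 CPM and the palmitate libraries 37.8, 45.3 and 39.9 CPM, while libraries with 0.5 mM butyrate held 38.4, 39.3 and 37.7 CPM, those with 1 mM 40.3, 38.3 and 36.4 CPM and those with 1.5 mM 32.2, 34.6 and 35.6 CPM. All high butyrate libraries were below all libraries of the other groups (75.2% of all genes had no overlap between high butyrate and control), and the other neighbouring groups overlapped. High butyrate relative to control was 1.28-fold lower (log2 change -0.36, SE 0.0701, adjusted p = 0.000108) and kept its call in all 24 alternative settings. Relative to palmitate it was 1.20-fold lower (log2 change -0.26, SE 0.0702, adjusted p = 0.00208), and this call was lost with library totals alone (adjusted p = 0.156) and with limma on log2 FPKM (adjusted p = 0.237 with a pseudocount of 1 and 0.236 with 0.1). The step from medium to high (log2 change of high over medium -0.17, adjusted p = 0.0496) was lost in 14 of 24 settings. At the low and medium dose the log2 changes were -0.09 (95% interval -0.238 to 0.0540) and -0.10 (95% interval -0.243 to 0.0492), neither called.

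AACS has a pseudogene copy, AACSP1, whose reads the counting could have split with it. AACSP1 was at 3.92 ± 0.311 CPM in control, 4.26 ± 0.736 CPM in palmitate, 8.76 ± 0.895 CPM in low, 9.43 ± 1.55 CPM in medium and 13.3 ± 1.72 CPM in high butyrate (SD, n = 3 each). It was higher in high butyrate than in palmitate (log2 change 1.64, adjusted p = 9.96e-10), opposite in direction to AACS. How far reads were shared between the copies was not tested.

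**Figure D2:**
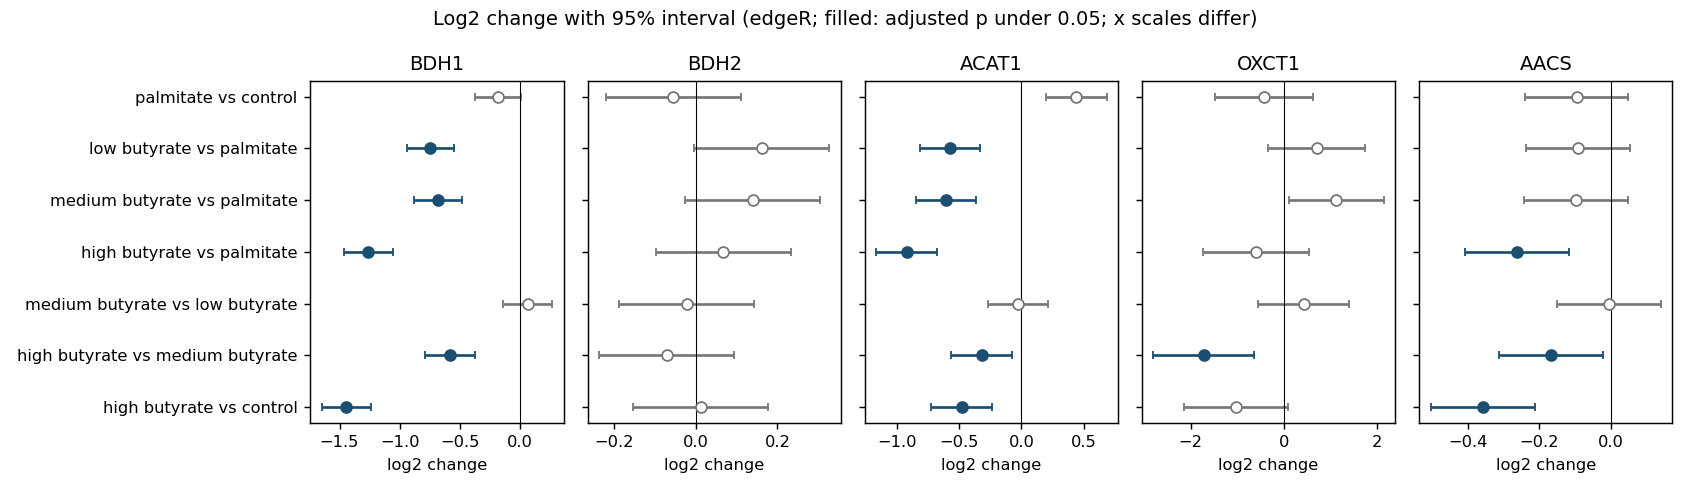
Log2 changes of the 5 genes in 7 comparisons between groups (horizontal axes, log2 units, a separate scale for each gene), with 95% intervals from edgeR; filled points are called at an adjusted p under 0.05. BDH1 and ACAT1 are filled at each butyrate dose relative to palmitate, and the OXCT1 intervals are the widest.

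In high butyrate relative to control 3 of 5 members, BDH1, ACAT1 and AACS, were called lower, against 70.0% of all tested genes called and 33.1% called lower. The same 3 had a called negative dose slope, against 70.4% of genes with a called slope and 33.3% with a called negative one. The AACS slope lost its call with library totals alone (adjusted p = 0.176) and with limma on log2 FPKM (adjusted p = 0.259 and 0.257 with a pseudocount of 1 and 0.1), and BDH2 had a called positive slope with library totals alone (adjusted p = 0.0455) and with limma at a pseudocount of 0.1 (adjusted p = 0.0487). BDH2 had a log2 change of 0.01 in high butyrate relative to control (95% interval -0.153 to 0.177) and OXCT1 one of -1.03 (95% interval -2.14 to 0.0877, adjusted p = 0.0933). OXCT1 was called in this comparison in 3 of 23 alternative settings, among them leaving out high butyrate replicate 3 (adjusted p = 0.0306).

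ACAT2, the cytosolic thiolase that makes acetoacetyl-CoA for sterol synthesis, had a larger fold change than ACAT1. It was at 24.3 ± 1.33 CPM in high butyrate and 227 ± 25.1 CPM in palmitate (SD, n = 3 each), a 9.36-fold fall (log2 change -3.23, adjusted p = 1.31e-17), and the log2 change was -1.46 at both lower doses. The FPKM ratio of ACAT1 to ACAT2 came to 0.189, 0.204 and 0.198 for the control libraries and 0.260, 0.214 and 0.252 for palmitate, then to 0.417, 0.470 and 0.468 for the low dose, 0.384, 0.434 and 0.509 for the medium dose and 1.31, 1.16 and 1.14 for the high dose. In high butyrate the mitochondrial enzyme had a higher FPKM than the cytosolic one, and in every other library it had a lower one. Which side of 1 a ratio falls on depends on the gene lengths behind the deposited FPKM, and that of ACAT2 was not checked. The log2 difference in this ratio between high butyrate and palmitate was 2.31, with an exact two-sided permutation p of 0.1, the smallest possible. OXCT2, a relative of OXCT1 known mainly from testis, was at 1.98 ± 0.417 CPM in high butyrate and 1.07 ± 0.318 CPM in palmitate (log2 change 0.87, adjusted p = 0.00603).

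**Figure D3:**
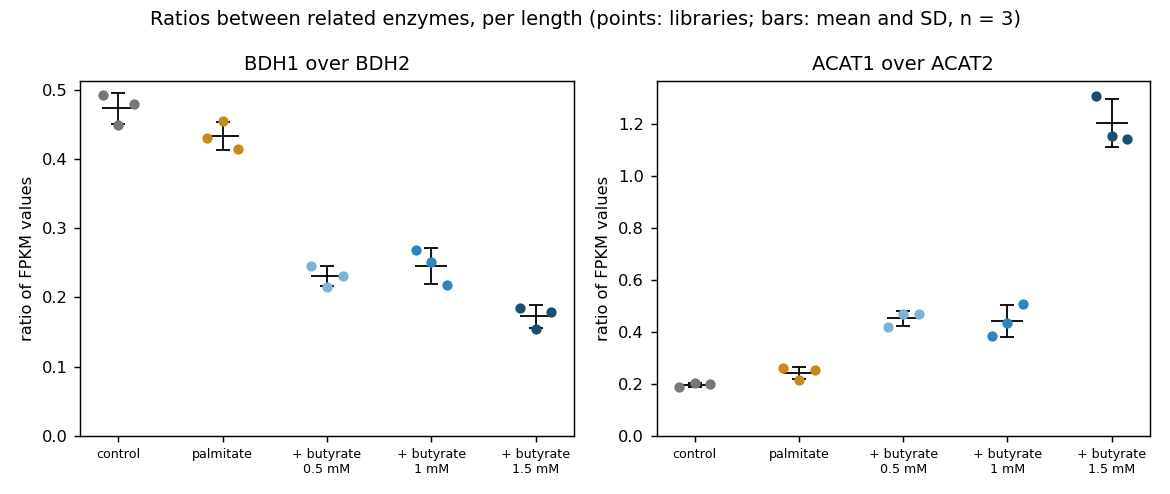
Ratios of FPKM values (vertical axes from 0) of BDH1 to BDH2 and of ACAT1 to ACAT2 in the 15 libraries by group, with the mean and SD of 3 libraries. The first ratio is between 0.154 and 0.185 in high butyrate and between 0.415 and 0.455 in palmitate, and the second is above 1 in high butyrate alone.

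Genes around the 5 enzymes were counted from lists chosen by function. Of 12 genes that carry butyrate to acetoacetyl-CoA, 11 were tested and in high butyrate relative to palmitate 5 rose and 3 fell. Beside each count of this paragraph, 37.7% of all tested genes were called higher and 33.8% lower. ACSM1 and ACSM3, which activate medium-chain and short-chain acids to CoA esters, rose (log2 changes 2.64 and 1.22), and HADH, the mitochondrial dehydrogenase that yields acetoacetyl-CoA from hydroxybutyryl-CoA, fell (log2 change -1.18, adjusted p = 2.27e-12). ACSM3 reached 89.5 ± 4.46 CPM in high butyrate, against 38.4 ± 1.70 CPM in palmitate (SD, n = 3 each). Among 4 other thiolase and trifunctional protein genes, HADHB rose (log2 change 0.63) and ACAA1 and ACAA2 fell (log2 changes -0.73 and -0.54). Of 11 genes for leucine and isoleucine breakdown, a source of acetoacetate and acetyl-CoA, 0 rose and 6 fell, among them MCCC2, a subunit of methylcrotonyl-CoA carboxylase (log2 change -1.62), and ACADSB, a short and branched-chain acyl-CoA dehydrogenase (log2 change -0.78).

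Carriers and the sterol branch were also counted in high butyrate relative to palmitate. Of 6 tested genes for transport of ketone bodies and other monocarboxylates, 3 rose and 2 fell, beside 37.7% and 33.8% of all tested genes. SLC16A6, which exports beta-hydroxybutyrate from liver cells in zebrafish, fell to 7.39 ± 0.489 CPM in high butyrate, against 40.4 ± 4.74 CPM in palmitate (SD, n = 3 each; log2 change -2.45, adjusted p = 9.54e-16). BSG, the partner protein of monocarboxylate transporters, rose (log2 change 0.89). Of 13 tested mevalonate and sterol genes, 1 rose and 11 fell, with a median log2 change of -0.86, beside 0.06 over all tested genes. HMGCS1, the cytosolic HMG-CoA synthase, fell by 1.42 on the log2 scale, and FDPS, which makes farnesyl diphosphate, by 1.28. At the low dose 3 of these 13 rose and 4 fell, against 49.9% of all tested genes called and 24.0% called lower.

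The cytosolic routes that AACS can feed did not move as 1 block. Of 7 genes for cytosolic acetyl-CoA and fatty acid synthesis, 5 rose and 2 fell in high butyrate relative to palmitate. FASN, the fatty acid synthase, had a log2 change of 1.55 and SREBF1, a regulator of lipid synthesis genes, one of 1.93, while ELOVL6, a fatty acid elongase, had one of -1.31. Of 7 tested regulators of ketone body synthesis 2 rose and 2 fell: CREB3L3, a liver regulator of fasting genes, rose (log2 change 3.54) and FOXA2, a liver factor that drives ketogenic genes, fell (log2 change -1.44). PPARGC1A, a coactivator in fasting, fell by 0.38 on the log2 scale. Over all of these lists together 18 of 61 tested genes were higher and 29 were lower, beside 37.7% and 33.8% of all tested genes.

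**Figure D4:**
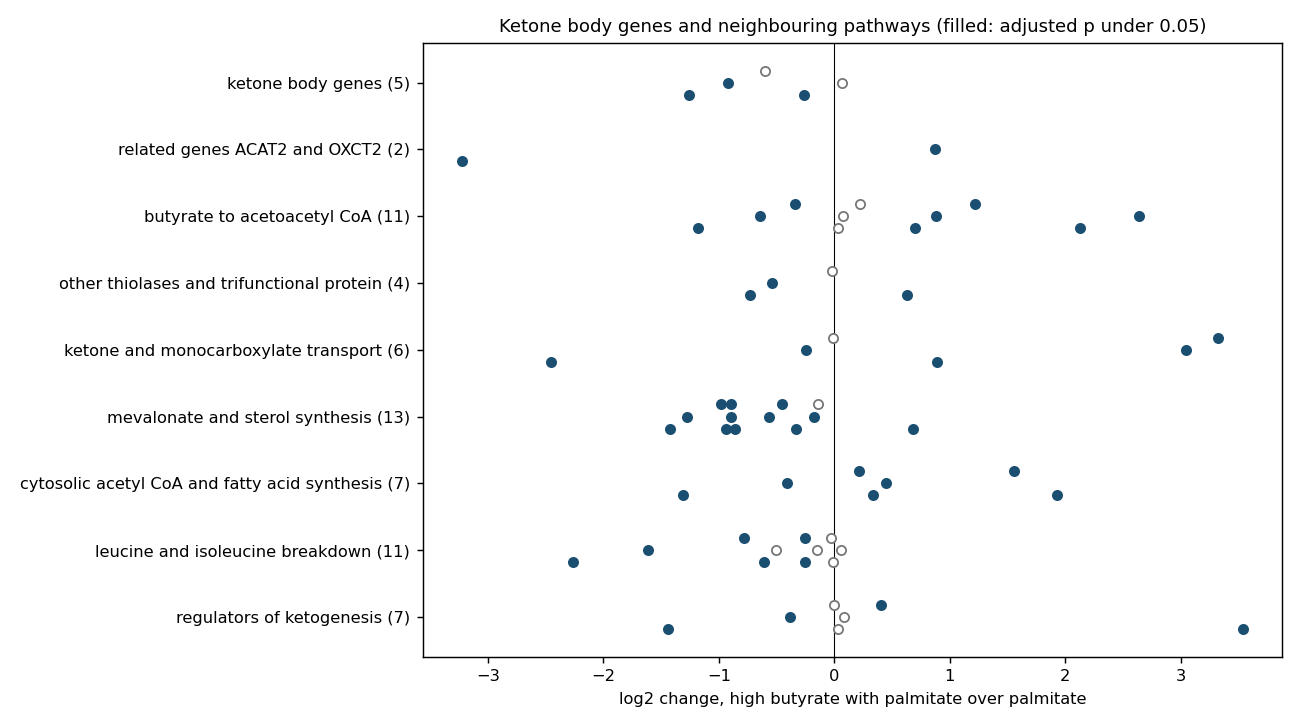
Log2 changes in high butyrate relative to palmitate (horizontal axis, log2 units) of the tested genes of each list, 1 point a gene, filled where called at an adjusted p under 0.05. The mevalonate and sterol list has 11 genes called lower and 1 called higher.

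Markers of cell type also changed, and the summed hepatocyte markers did not follow dose in 1 direction. The 11 hepatocyte markers were all detected, and their summed level was 26713 to 30481 CPM in high butyrate, 36264 to 37837 CPM in medium, 34969 to 38489 CPM in low, 30916 to 33923 CPM in palmitate and 28997 to 31158 CPM in control. In high butyrate relative to palmitate 2 of 11 rose and 7 fell, beside 37.7% and 33.8% of all tested genes. The 3 with the smallest adjusted p all fell, with log2 changes of -1.11 for ALB, -1.26 for AFP and -2.17 for ASGR1. Of 13 stromal, endothelial and immune markers 8 were tested, 6 rose and 1, LYZ, fell. COL1A1 had the smallest adjusted p of these, with a log2 change of 7.94. All 13 markers summed to 981 to 1060 CPM in high butyrate and to 2064 to 2651 CPM in palmitate, a lower sum at the high dose. Without LYZ, which stood at 943 to 2845 CPM in these cells, the sum was 38.1 to 43.6 CPM in high butyrate and 6.99 to 8.02 CPM in palmitate. LUM was at 0 in every control and medium library and DCN in every low and high library. Of 6 neuronal markers 4 were tested, 2 rose and 1 fell, STMN2 was at 0 in all control, palmitate, low and medium libraries and RBFOX3 in all control libraries, and their sum was 8.83 to 9.62 CPM in high butyrate and 2.49 to 3.59 CPM in palmitate. The part of these shifts in the falls of BDH1, ACAT1 and AACS was not tested. All libraries are of the HepG2 line, and bulk RNA does not show whether such shifts were shared by all of its cells.

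The genes most like each member across libraries were named by Pearson correlation of log2 CPM over the 15 libraries, which share the 5 groups, so a dose pattern common to many genes gives high values. For BDH1 they were CHST9 (0.983), TTC23 (0.983) and IDE (0.981), with the 95th percentile of 10976 genes at 0.941. For ACAT1 they were SNW1 (0.992), PNISR (0.989) and ARL1 (0.988), with a 95th percentile of 0.876. For AACS they were CCAR2 (0.952), MCM3AP (0.951) and ARFGEF2 (0.948), against 0.851. BDH2 had no gene above 0.834, the value of RPL17, followed by ATP1B3 (0.827) and RAB29 (0.789), with a 95th percentile of 0.486. For OXCT1 they were FSBP (0.839), EMP1 (0.837) and VIM (0.821), with a 95th percentile of 0.544. Between members the correlation was 0.856 for BDH1 with AACS, 0.723 for BDH1 with ACAT1 and 0.385 for ACAT1 with AACS, while BDH2 gave -0.283 with BDH1 and 0.536 with OXCT1.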

How the data were processed

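Counts were analysed as deposited: the table holds raw counts per Ensembl gene in 15 libraries, with 35349827 to 61086976 counts each. The submitters' processing notes name FastQC, HISAT2, featureCounts and DESeq2 with the builds GRCh38 and hg38, without versions. FPKM values were deposited by the authors beside the counts, and equalled count over length and total to within 1% for each of 11013 genes whose count reached 100 throughout. Pairs were probably counted by both of their reads: among counts of 1 to 20, 69.19% were even, against 50.48% among counts of 100 to 1000.

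Genes passing filterByExpr (20309) were scaled by TMM, and edgeR 4.0.16 (R 4.3.3) fitted all libraries together by quasi-likelihood, each group having its own coefficient, with Benjamini-Hochberg adjustment over all of them. The edgeR fit was tested on simulated counts with changes placed in the high butyrate libraries, and the other steps were not. Alternatives used DESeq2 1.42.0, limma 3.58.1 on log2(FPKM + pseudocount), other scalings and filters, a replicate block, and each library left out. Ratios were compared by exact permutation. The members and lists were chosen with earlier results of these data known. From each list up to 3 genes called in high butyrate relative to palmitate with the smallest adjusted p were eligible to be named, and for each member the 3 genes most correlated with it (average log2 CPM of at least 2). AACSP1 was named outside that rule, and some list genes that it covers are not reported here. Replicate labels do not state separate cultures beyond the words of the series text, and p-values measure the spread between these libraries.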

Additional observations from a re-analysis of the deposited data

How the results depend on the processing

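Over 951 values of a member in a comparison under an alternative, 881 kept their direction and their side of the threshold, 28 lost a call, 25 gained one and 17 changed sign. The number of members called in palmitate relative to control was 0, and 1 with DESeq2 or without a filter on low counts. In medium butyrate relative to palmitate it was 2, and 4 with library totals alone or with limma on log2(FPKM + 0.1). In these settings 50.2% and 48.2% of all tested genes were called. The calls gained there were of BDH2 and OXCT1, both higher than in palmitate (log2 changes 0.20 and 1.20 with library totals alone). In high relative to medium butyrate the number of members called was 4, and 2 with DESeq2, library totals alone, a filter of at least 1 CPM in 3 libraries, or limma on log2 FPKM with either pseudocount. With 1 library left out at a time, the counts of called members ranged from 0 to 1 in palmitate relative to control, 2 to 4 in low and 2 to 3 in medium butyrate relative to palmitate, 2 to 4 in high relative to medium butyrate and 3 to 4 in high butyrate relative to control. They were 3 to 3 in high butyrate relative to palmitate and for the dose slope, and 0 to 0 in medium relative to low butyrate. Calls gained at the low and medium dose relative to palmitate were again of BDH2 or OXCT1, each higher than in palmitate. Of all tested genes, 22 were called in palmitate relative to control, 376 with DESeq2, 600 without a filter on low counts, 40 with library totals alone, 3 with only the groups compared, and 9 and 7 with limma. That count was 1175 without palmitate replicate 2, 219 without palmitate replicate 1, and 4 to 12 without any 1 of the other libraries. In medium relative to low butyrate 0 genes were called, and 39 without a filter.

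BDH2 changed sign where it was near 0. In high relative to medium butyrate its log2 change was 0.00431 with library totals alone and 0.00135 and 0.0014 with limma at a pseudocount of 1 and 0.1, and in high butyrate relative to control it was -0.0282 without a filter and -0.00233 with only the groups compared. Leaving out 1 library gave log2 changes of -0.0309 to 0.0311 for BDH2 in high butyrate relative to control. In medium relative to low butyrate it gave -0.0186 to 0.123 for BDH1, -0.0727 to 0.0318 for BDH2, -0.144 to 0.0385 for ACAT1 and -0.0411 to 0.0302 for AACS. OXCT1 ranged from -1.17 to 0.21 in high butyrate relative to palmitate and from -0.62 to 0.21 in its slope per mM. For these the cause was not tested.

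Deviations from group means gave no clear sign that the replicate numbers pair the libraries. Those of same-numbered libraries correlated at -0.326 to 0.334 (median 0.0351) over 30 pairs, against -0.401 to 0.363 (median -0.0214) over 60 pairs with different numbers. Such ranges cannot show that no pairing exists. With the replicate block 3 members were called in high relative to medium butyrate, since AACS reached an adjusted p of 0.0508. In the other 7 comparisons the block left the number of called members as it was: 0, 2, 2, 3, 0, 3 and 3 in the order palmitate over control, low, medium and high butyrate over palmitate, medium over low butyrate, high butyrate over control, and slope. Depth limits OXCT1, whose libraries held between 4 and 54 counts.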
